A study of Mus musculus with 4 samples.

Results

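Lipid droplets are the stores of triglyceride and cholesterol ester in a hepatocyte, the main metabolic cell of the liver, and 10 genes for proteins that coat, enlarge or break down these droplets are described here. They were chosen by name, as every probe labelled with one of Pnpla2, Pnpla3, Pnpla5, Plin2, Plin3, Plin4, Plin5, Cidea, Cideb or Cidec on the array, which gave 13 probes of 55681. Of the 10 genes, 9 were measured, among 24637 genes and named features in all. A gene counted as measured when the scanner software found a probe of it well above background on every array of 1 or both treatments. The measured genes had 12 probes, and the probe with the highest mean stands for its gene unless another is named.

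Primary hepatocytes from mice of the strain labelled bl6 were grown with 10% fetal bovine serum, then moved overnight to 0.5% serum with 5 µM simvastatin and 100 µM mevalonic acid. Simvastatin inhibits cholesterol synthesis, and mevalonic acid is an early intermediate of that pathway. All 4 samples had these additions, and they were given either DMSO, the solvent, or 1 µM GW3965, an agonist of the liver X receptors (LXR), with 2 samples per treatment. LXRs are nuclear receptors for oxysterols that switch on genes of sterol export and fatty acid synthesis. The treatment is labelled LXR against GW3965, and neither age nor sex of the mice is named in the labels. The samples carry the letters a and b, and the labels do not say whether these are separate animals or cultures, so p-values measure only the spread between these samples, which may be technical.

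Triglyceride is released from a droplet by lipases, of which the enzyme encoded by Pnpla2 acts first. Perilipins coat the droplet surface and control the access of lipases, and CIDE proteins promote the fusion and growth of droplets. In liver, LXR activation is known to drive fatty acid synthesis, largely through the transcription factor encoded by Srebf1, and Pnpla3 is known as a gene that this factor can induce.

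Levels are given as log2 of the signal over the 75th percentile of its array, and each gene's levels are compared between arrays only. Between 34775 and 38481 probes were well above background on an array, and 0 spots were saturated. All 10 hepatocyte markers were measured, and the LXR targets Abca1, Abcg1 and Srebf1 were higher on both GW3965 arrays than on both DMSO arrays, by 1.24 to 2.58. The arrays lettered b stood apart from those lettered a in both groups, so each difference is also given for either letter. The main test has no term for the letter, so its SEs, intervals and p-values take in that gap. Over all genes, limma called 0% at an adjusted p under 0.05 (0 of 24637), and 0.824% had an unadjusted p under 0.05. The GW3965 arrays were both above the DMSO pair in 9.41% of genes and both below it in 6.55%.

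With GW3965, Pnpla3 had a mean 2.13-fold that with DMSO, the largest difference among the members, while the other 8 measured genes lay between 0.842-fold and 1.17-fold. By limma, 0 of the 9 rose and 0 fell at an adjusted p under 0.05, beside 0% of all genes. None of the 9 had an unadjusted p under 0.05, beside 0.824% of all genes. Means were higher in 6 members and lower in 3, with a median log2 difference of 0.08, beside -0.006 over all genes. In all 9 the arrays of the groups overlapped. Compared within a letter, the treated array was the higher at both letters in 3 of the 9 (Pnpla3, Plin4 and Cidea) and the lower at both in 1 (Plin5), beside 25.4% and 24.4% of all genes. The absence of members whose groups were apart rested on all 4 arrays, and with 1 array against 2 such separation is common among all genes. Leaving out an array also leaves the groups with unlike letters, so the gap between letters enters the counts that follow. Without GW3965 replicate b, 6 members were higher without overlap and 0 lower, beside 28.6% and 28.4% of all genes. Without DMSO replicate a the counts were 4 and 1, beside 23.9% and 32.8%. Without DMSO replicate b they were 1 and 2, beside 34.3% and 22.1%, and without GW3965 replicate a they were 0 and 4, beside 32.5% and 29.3%. RNA came from whole cultures, where fewer cells of a type and less RNA per cell cannot be told apart.

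**Figure D1:**
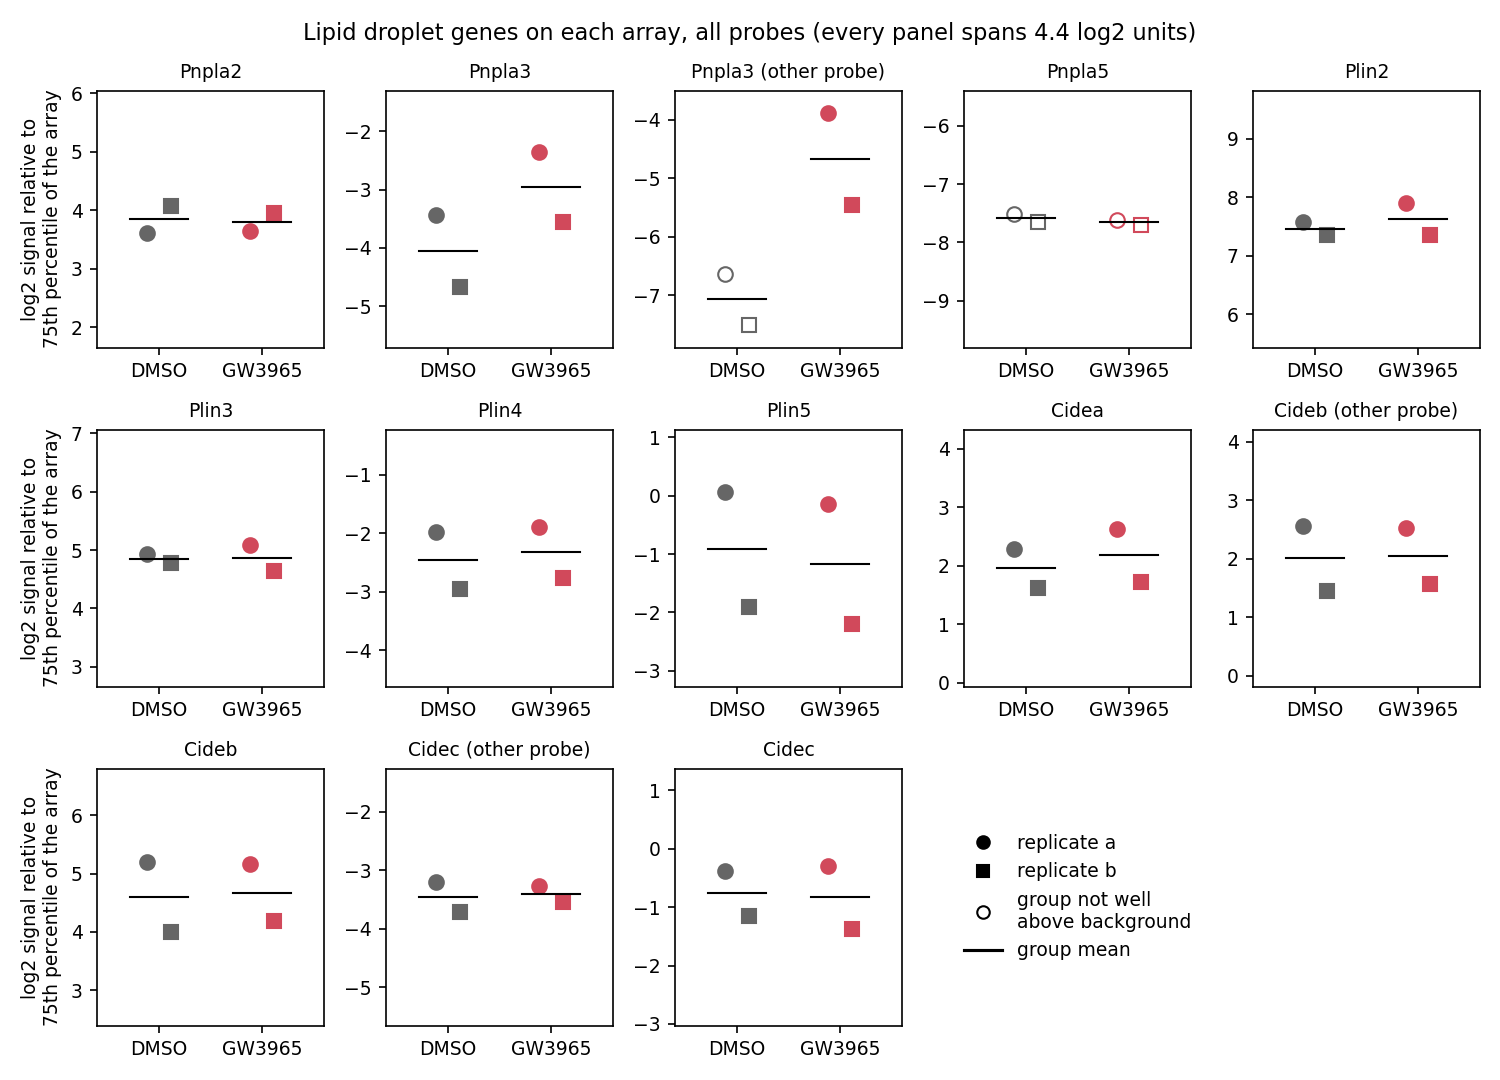
Signal of all 13 probes of the 10 genes on each of the 4 arrays, as log2 relative to the 75th percentile of the array (vertical axis), by treatment (horizontal axis), with circles for replicate a, squares for replicate b, open symbols where a group was well above background on 0 arrays, and lines for group means. The main Pnpla3 probe was higher with GW3965 at either letter, and Plin5 stood near 0 on both a arrays and near -2 on both b arrays.

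Among the lipases, Pnpla3 encodes a patatin-domain protein of the droplet surface, also called adiponutrin, that acts on triglyceride and retinyl ester. On its main probe Pnpla3 stood at -3.43 on replicate a and -4.66 on replicate b with DMSO, and at -2.35 and -3.56 with GW3965. Before scaling, the processed signals were 50.6 and 23.9 with DMSO and 99.9 and 57.1 with GW3965. GW3965 replicate b lay just below DMSO replicate a, so the groups overlapped, while at either letter the treated array was the higher. The difference was 1.08 on the a arrays and 1.10 on the b arrays, or 2.11-fold and 2.14-fold. The log2 difference of the means was 1.09 ± 0.59 (SE, 2 arrays per group), with a 95% interval from -0.46 to 2.63 and an adjusted p of 1.00 by limma (0.128 before adjustment). In size this difference lay at the 99.5th percentile of all genes. Leaving out DMSO replicate b gave 0.47 and leaving out GW3965 replicate a gave 0.48, while 1.69 resulted when GW3965 replicate b was left out and 1.70 when DMSO replicate a was. With normexp background correction, which adds 50 units to every signal and so pulls dim probes together, it was 0.47.

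The other Pnpla3 probe lies further along the same transcript, with no intron between them. It was well above background on 0 of the 2 DMSO arrays, where it read -6.63 and -7.51, and on both GW3965 arrays, where it read -3.89 and -5.45. With the dim arrays set no lower than the lowest signal well above background on that array, the Pnpla3 mean on this probe was 2.27-fold higher with GW3965. That floor is the lowest over all probes, so this probe's own limit may be higher and the fold smaller. The measured means were -7.07 ± 0.62 (SD, n = 2) and -4.67 ± 1.109 (SD, n = 2). This probe was kept only through its GW3965 arrays and its DMSO readings are at background, so its fold is given with that floor and no test, and adds no support to the main probe.

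Pnpla2 encodes adipose triglyceride lipase, which removes the first fatty acid from triglyceride. Its probe lies on chromosome 7 from 148645928 to 148645987. Pnpla2 stood at 3.62 (a) and 4.08 (b) in DMSO, and GW3965 gave 3.65 and 3.94. Both treated arrays lay between the DMSO arrays. The log2 difference was -0.05 ± 0.25 (SE), with a 95% interval from -0.71 to 0.61, so that a change of up to 1.53-fold upward or to 0.611-fold downward lies within it.

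Pnpla5 encodes another patatin-domain lipase, and its probe lies on chromosome 15 from 83943051 to 83943110. It was well above background on 0 of 4 arrays, with processed signals of 2.999 and 3.02 on the DMSO arrays and 2.61 and 3.25 on the GW3965 arrays. No level or fold is given for it, since all 4 readings were at background.

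Sequence before the start sites was set beside these values because Pnpla3 and Pnpla5 are neighbours on opposite strands, with start sites 44.6 kb apart. RefSeq sequences on the build GRCm38.p6 were found for 9 of the 10 members, with 11 start sites, and the 250 bases before each were searched on both strands. Pnpla3 and Pnpla5 are shown as these neighbours, Pnpla3 having the largest difference among the members, and Plin3 because its mean was nearly the same with both treatments. For Pnpla3 the last bases before the start site lie inside the annotated span of the gene and are left out. Capitals mark CCAAT, which reads ATTGG on the opposite strand and is the box bound by NF-Y, and CACGTG, the E-box of factors such as ChREBP and USF.
Pnpla3, chr15:84167566-84167775, forward strand, 210 bases: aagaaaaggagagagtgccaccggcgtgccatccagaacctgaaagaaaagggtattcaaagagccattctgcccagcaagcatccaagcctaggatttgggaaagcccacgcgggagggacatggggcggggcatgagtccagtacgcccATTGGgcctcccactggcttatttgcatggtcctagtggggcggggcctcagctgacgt
Pnpla5, chr15:84123176-84123425, reverse strand, 250 bases: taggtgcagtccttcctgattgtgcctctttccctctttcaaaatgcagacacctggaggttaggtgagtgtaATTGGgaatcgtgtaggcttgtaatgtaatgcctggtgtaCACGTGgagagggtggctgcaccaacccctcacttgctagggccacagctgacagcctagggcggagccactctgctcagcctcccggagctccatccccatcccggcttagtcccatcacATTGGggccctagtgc
Plin3, chr17:56290512-56290761, reverse strand, 250 bases: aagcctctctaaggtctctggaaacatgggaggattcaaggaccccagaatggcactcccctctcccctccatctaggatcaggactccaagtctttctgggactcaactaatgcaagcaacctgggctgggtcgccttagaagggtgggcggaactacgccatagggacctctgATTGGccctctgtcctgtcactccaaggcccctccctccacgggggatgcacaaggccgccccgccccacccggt

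CCAAT was found before 6 of the 11 member start sites, those of Pnpla3, Pnpla5, Plin2, Plin3 and Plin4 and 1 of those of Plin5, and in 33.8% of 32851 RefSeq promoters of the same length. In Pnpla3 it lies 95 to 99 bases before the start site, on the opposite strand. CACGTG was found before Pnpla5 only, 132 to 137 bases before its start site, and in 6.02% of all promoters. A sterol regulatory element core, TCACNCCAC, was found before 0 of the 11 and in 1.05% of all promoters. The LXR element, AGGTCA repeated after a spacer of 4 bases, was found before 0 of the 11 and in 0.0152% of all, and its relaxed form before 0 and in 0.195%. For the PPAR element, AGGTCA repeated after a spacer of 1 base, the counts were 0 and 0.0335%, and for its relaxed form 0 and 0.347%. TATAAA was found before Cideb alone, and in 12.4% of all. No match overlapped another in the sequences shown, and letters that match a box are not evidence of binding. The sterol, LXR and PPAR elements are rare in all promoters, so 0 of 11 is near their shares. Neither the sterol element nor the LXR element in either form was found before the start sites searched for Abca1 and Srebf1. The lack of a match is therefore not evidence that a gene lacks control by these factors.

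The perilipins showed small differences with GW3965, from -0.25 for Plin5 to 0.16 for Plin2 on the log2 scale. Plin2, the main droplet coat protein of hepatocytes, stood at 7.57 and 7.35 on replicates a and b with DMSO and at 7.90 and 7.35 with GW3965. GW3965 replicate a was the highest array and the other 3 lay close together. Its log2 difference was 0.16 ± 0.27 (SE), with a 95% interval from -0.53 to 0.86. The a arrays differed by 0.33 and the b arrays by -0.005. The Plin2 probe lies on chromosome 4 from 86302847 to 86302906.

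Plin3, a coat protein that moves between cytosol and young droplets, had 4.93 (a) and 4.78 (b) in DMSO, against 5.08 and 4.65 under GW3965. The GW3965 arrays lay on either side of the DMSO arrays, and the log2 difference was 0.01 ± 0.23 (SE), with a 95% interval from -0.60 to 0.62. With arrays centred on their median the sign turned, to -0.04. Plin3 had the smallest difference in size among the members, at the 5.54th percentile of all genes.

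Plin4, a perilipin best known from adipocytes, stood at -1.97 and -2.96 on replicates a and b with DMSO and at -1.89 and -2.76 with GW3965. At either letter the treated array was the higher, by 0.08 and 0.20, and the groups overlapped. The log2 difference was 0.14 ± 0.47 (SE), with a 95% interval from -1.08 to 1.36. The Plin4 signal was dim, and its difference was 0.06 with normexp background correction.

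Plin5, a perilipin of oxidative tissues that brings droplets next to mitochondria, had 0.06 (a) and -1.90 (b) in DMSO, against -0.15 and -2.19 under GW3965. It was lower with GW3965 at either letter, by -0.20 on the a arrays and -0.30 on the b arrays, while the b arrays lay far below the a arrays in both groups. The log2 difference was -0.25 ± 0.94 (SE), and the 95% interval, from -2.70 to 2.21, was the widest of the members. This SE and interval take in the gap between the letters. On mm9 the probes of Plin4 and Plin5 lie 11.0 kb apart on chromosome 17, from 56240055 to 56240114 and from 56251025 to 56251084, and that of Plin3 lies 167.4 kb beyond, from 56418429 to 56418488.

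**Figure D2:**
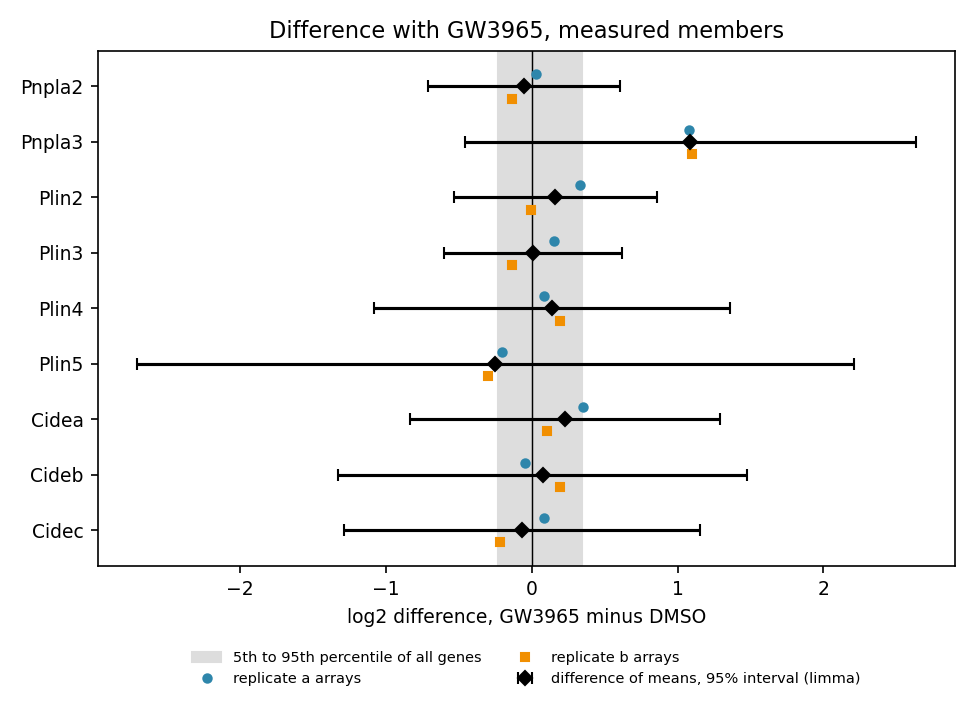
Log2 difference of GW3965 minus DMSO (horizontal axis) for the 9 measured members, with diamonds and bars for the difference of means and its 95% interval by limma, circles for the a arrays, squares for the b arrays, and a grey band from the 5th to the 95th percentile of all genes (-0.23 to 0.34). Pnpla3 lies at 1.09 with its letters at 1.08 and 1.10, the other 8 means lie between -0.25 and 0.23, and every interval includes 0.

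None of the CIDE genes passed the test, and their log2 differences ran from -0.06 for Cidec to 0.23 for Cidea. Cidea, which promotes droplet fusion and is best known from brown fat, stood at 2.28 and 1.63 on replicates a and b with DMSO and at 2.64 and 1.73 with GW3965. The treated array was the higher at either letter, by 0.35 and 0.10, and the groups overlapped. Its log2 difference was 0.23 ± 0.41 (SE), with a 95% interval from -0.84 to 1.29.

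Cideb, the CIDE gene of liver, which takes part in loading lipid onto very low density lipoprotein, had 5.20 (a) and 3.99 (b) in DMSO, against 5.16 and 4.19 under GW3965. Its log2 difference was 0.08 ± 0.54 (SE), with a 95% interval from -1.33 to 1.48, and both treated arrays lay between the DMSO arrays. The other Cideb probe, on chromosome 14 from 56373658 to 56373717, gave 2.57 and 1.46 with DMSO and 2.52 and 1.58 with GW3965, a difference of 0.04. The main probe lies from 56372942 to 56373001, and 716 bases of genome but 577 of transcript separate the starts of the pair, so 139 bases of intron lie between.

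Cidec, also called Fsp27, which enlarges droplets in adipocytes and fatty liver, had -0.38 (a) and -1.15 (b) in DMSO, against -0.29 and -1.37 under GW3965. The log2 difference was -0.06 ± 0.47 (SE), with a 95% interval from -1.29 to 1.16, and the groups overlapped. The other Cidec probe read -3.20 and -3.72 with DMSO and -3.27 and -3.55 with GW3965, a difference of 0.05, so the probes differ in sign. They lie on chromosome 6, the main probe from 113374630 to 113374689 and the other from 113378116 to 113378175, with 2396 bases of intron between them. Adipocytes also express Cidec, Cidea and Plin4, and of their 8 markers 7 were measured and Adipoq, the defining secreted protein, was not. Their summed signal, in units of the 75th percentile, was 6.95 and 9.29 with DMSO and 8.40 and 9.76 with GW3965. Most of this sum came from Fabp4, at log2 levels of 2.285 and 2.73 with DMSO. Lep, Plin1, Retn and Cfd read -3.12 or lower on every array, so the sum is no measure of adipocytes. Any part of adipocytes in the values above was not tested.

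The members differed more between the lettered arrays than between the treatments. In 8 of the 9 measured members replicate b was below replicate a in both groups, where 31.8% of all genes were, and Pnpla2 alone was above in both, where 43.4% were. The mean gap from a to b was larger in size than the difference with GW3965 in all 9 members, and in 75.8% of all genes. Over the members the median gap, b minus a, was -0.92 on the log2 scale, beside 0.06 over all genes.

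Plin5 had the widest gap among the members, with replicate a 3.87-fold above replicate b with DMSO and 4.13-fold with GW3965, at the 99.3rd percentile of all genes in size. For Pnpla3 the a array was 2.35-fold and 2.31-fold above the b array in these groups, for Cideb 2.31-fold and 1.96-fold, and for Plin4 1.99-fold and 1.84-fold. Cidec (1.71-fold and 2.11-fold) and Cidea (1.58-fold and 1.88-fold) ran the same way. The gaps of Plin2 (1.16-fold and 1.47-fold) and Plin3 (1.108-fold and 1.35-fold) were the smallest among those with a above b. On Pnpla2 the b array was higher, with log2 gaps of 0.46 and 0.29. The SE of the difference with GW3965 was widest for Plin5 and narrowest for Plin3.

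Markers of the cells in the culture moved with the letter as well. All 10 hepatocyte markers were lower on replicate b in both groups, with a median gap of -1.12 and a summed signal of 2456.5 and 1682 on replicates a and b with DMSO and 2640.4 and 1426 with GW3965. All 8 macrophage markers were lower too, with a median gap of -0.67. Their sums were 46.8 and 28.2 with DMSO and 53.7 and 31.5 with GW3965. Serpina1a and Alb made up most of the hepatocyte sums, and Cd68 alone most of the macrophage sums. Of 7 endothelial markers 5 were higher on replicate b in both groups and 1 was lower, with sums of 39.2 and 50.2 with DMSO and 41.5 and 53.6 with GW3965. Of the 7 measured stellate cell and fibroblast markers 4 were higher and 2 lower, with sums of 77.1 and 44.9 and of 81.6 and 42.7, and Lrat was not measured. Most of these sums came from Dcn alone, which was lower on replicate b in both groups. Of the 4 measured cholangiocyte markers 3 were higher and 1 lower, with sums of 62.5 and 76.0 and of 57.2 and 63.8, and Krt7 was not measured. Spp1 alone made up most of the cholangiocyte sums. The part of these shifts in the members' gap was not tested. Between the treatments, 0 of the 43 measured markers of these lists and of the adipocyte list passed limma at an adjusted p under 0.05. Of all genes 0% passed, so this count does not show that the mix of cells was unchanged. Lep, Tek and Pdgfrb were higher and Spp1 was lower with GW3965 without overlap, beside 9.41% and 6.55% of all genes. The median log2 difference of the hepatocyte list was -0.02.

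**Figure D3:**
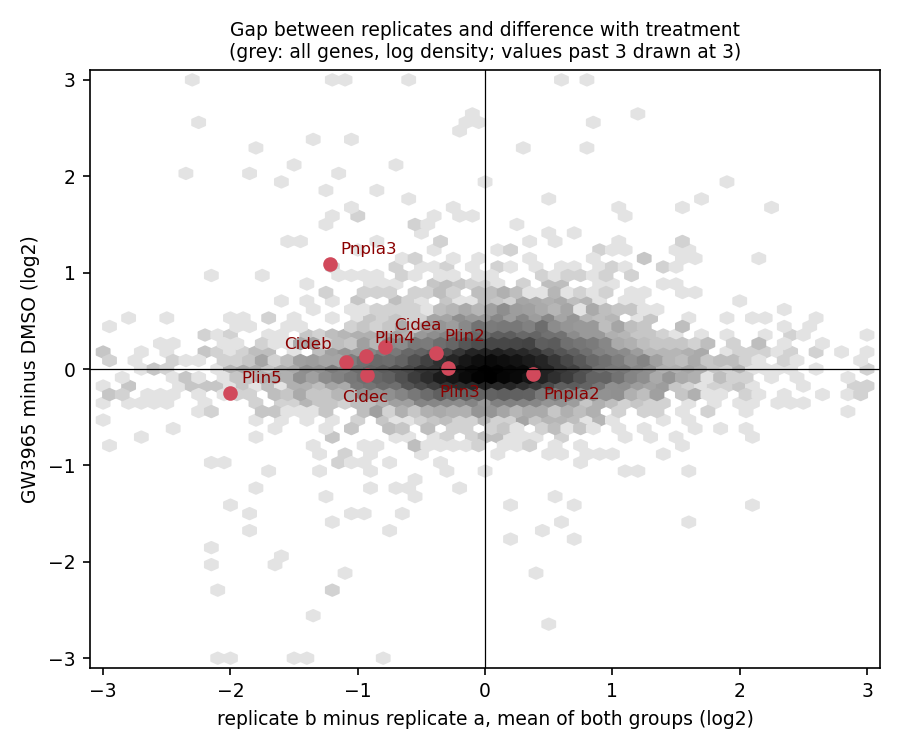
For every gene, replicate b minus replicate a as the mean of both groups (horizontal axis, log2) against GW3965 minus DMSO (vertical axis, log2), with all 24637 genes as grey density and the 9 members as red points. The members spread along the horizontal axis, from Plin5 at the far left to 0.38 for Pnpla2, and stay near 0 on the vertical one apart from Pnpla3 at 1.09.

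Other genes of droplet growth, droplet breakdown and lipid export were read from a list of 32, all of which were measured. By limma 0 rose, 0 fell and 32 did not pass at an adjusted p under 0.05, where 0% of all genes passed. At an unadjusted p under 0.05 there were 0, beside 0.824% of all genes. Means of 14 were higher and of 18 lower with GW3965, and the median log2 difference was -0.01. Plin1, among the higher, was kept only through its GW3965 arrays. Both treated arrays lay above both DMSO arrays in 0 of the 32 and below in 2, Pnpla8 and Mttp, beside 9.41% and 6.55% of all genes.

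Pnpla8, a patatin-domain phospholipase of mitochondria and peroxisomes, read -4.16 and -4.19 on replicates a and b with DMSO and -4.53 and -5.15 with GW3965, a log2 difference of -0.67 ± 0.27 (SE; limma, unadjusted p = 0.0611, adjusted p = 1.00). The Pnpla8 signal was dim, and its difference was -0.22 with normexp background correction, -0.35 without GW3965 replicate b and -0.98 without GW3965 replicate a. Mttp, which loads lipid onto apolipoprotein B, read 2.52 and 2.64 with DMSO and 2.51 and 2.21 with GW3965, a difference of -0.22 ± 0.21 that was -0.07 without GW3965 replicate b and -0.36 without GW3965 replicate a. G0s2, an inhibitor of the lipase encoded by Pnpla2, read 0.74 and 0.29 with DMSO and 0.99 and 0.58 with GW3965. At either letter G0s2 was higher on the treated array, with a difference of 0.27 ± 0.27, which ran from 0.05 without DMSO replicate b to 0.50 without DMSO replicate a. For Abhd5, the coactivator of the same lipase, the difference was -0.08, and for Hilpda, another inhibitor of it, 0.03. Lipe, the hormone-sensitive lipase, differed by 0.06 and Mgll, which completes the breakdown to glycerol, by 0.19.

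Plin1, the perilipin of adipocytes, read -7.41 and -5.25 with DMSO and -5.30 and -5.50 with GW3965. DMSO replicate a was not well above background and stood far below the other 3 arrays, so Plin1 was kept only through its GW3965 arrays. The Plin1 difference of 0.93 ± 0.73 turned to -0.15 without DMSO replicate a. With normexp background correction it was 0.10, and no rise is read from it. The remaining genes named by rule were Rab18 (-0.18 ± 0.23), Spast (-0.17 ± 0.25), Cav1 (0.22 ± 0.36) and Pnpla1 (0.16 ± 0.26), all with overlapping arrays. None of these values was past the threshold.

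**Figure D4:**
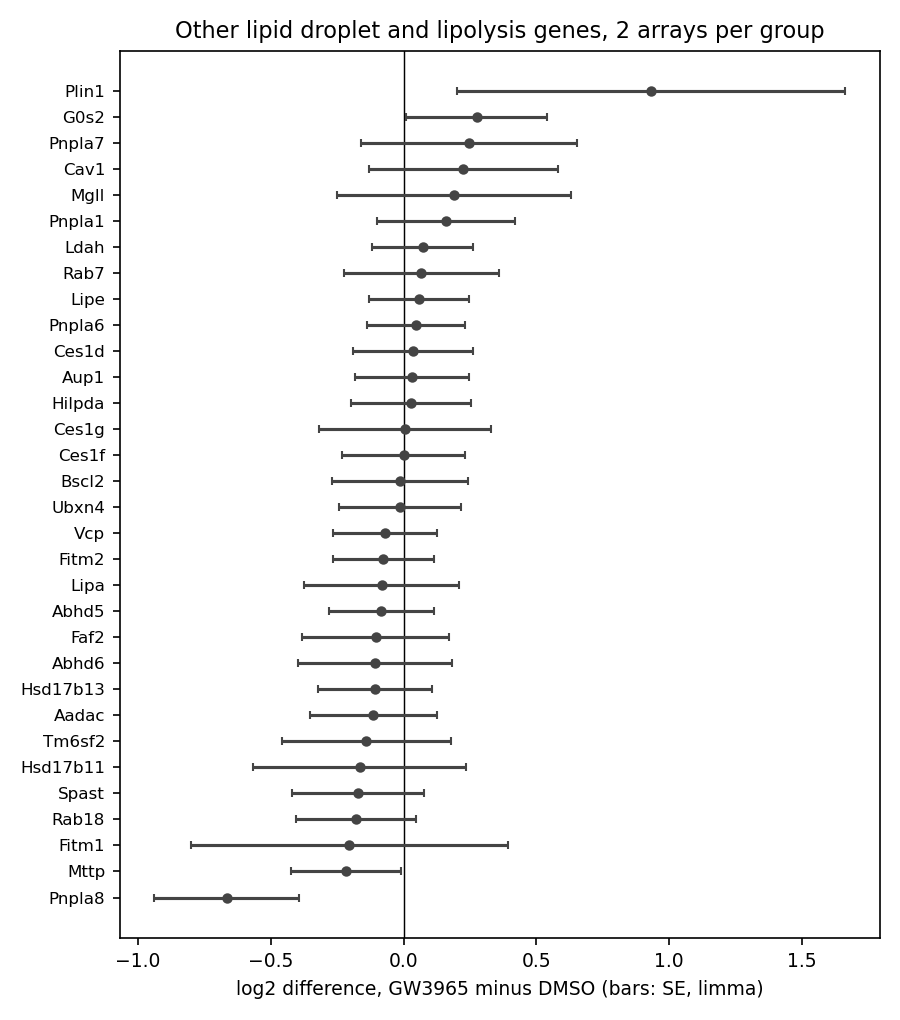
Log2 difference of GW3965 minus DMSO (horizontal axis) for the 32 other lipid droplet and lipolysis genes, ordered by difference, with bars for the SE by limma. Plin1 at 0.93 and Pnpla8 at -0.67 lie at the ends, and the other 30 lie between -0.22 and 0.27. Plin1 was kept only through its GW3965 arrays.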

How the data were processed

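RNA of the 4 samples was labelled with Cy3 and hybridised to 1-colour Agilent arrays, all on 1 slide. Per the file headers, the deposited spot intensity values came out of Agilent Feature Extraction 10.7.3.1 after background subtraction and spatial detrending, with no scaling across arrays, on mm9, whereas 11.5.1.11 is the version in the submitters' processing notes. Spots marked as outliers were left out, spots of a probe were averaged as log2, and each array's 75th percentile was subtracted. Gene names came from RefSeq accessions for 26762 probes and otherwise from the files. The treatments were tested by limma 3.58.1 (R 4.3.3 with the package data.table, version 1.17.8), two-sided, no block and Benjamini-Hochberg adjustment over all 24637 genes at a threshold of 0.05. Degrees of freedom were 2 residual and 2.72 prior. With 2 arrays a side, 0.333 is the smallest two-sided p of an exact permutation test. The fit was tested on simulated data in which arrays varied independently. Those data had no gap shared by the arrays of a letter, so that test does not cover such a gap. Alternatives were quantile normalization, median centring, normexp (offset 50), the value table as deposited, keeping every probe, requiring all arrays above background, averaging the probes of a gene, testing probes singly, an intensity trend, a robust prior, the replicate letter as a block, and each array left out. The genes named are all members, the 8 list genes with the smallest p, and Abca1, Abcg1 and Srebf1, and some others of the list were added after their values were seen. Members and lists were chosen with earlier results of these data known. Figures were drawn with matplotlib 3.10.9.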

Additional observations from a re-analysis of the deposited data

How the results depend on the processing

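Members that passed limma numbered 0 under all 14 alternatives run, and Pnpla3 kept its sign in each alternative run on its main probe. Genes called over the whole array rose from 0 to 15 with the replicate letter as a block (replicate block), and ran from 0 to 1 with an array left out. With that block, which the labels do not establish as a pairing, Pnpla3 had an unadjusted p of 0.000181 and an adjusted p of 0.159, and 0 members were called. The correlation over genes of the gap between letters in the 2 groups was 0.72. With the mean of a gene's probes, 1 member (Pnpla3) was higher without overlap, beside 10.2% of all genes, but this mean takes in the probe at background with DMSO and supports nothing. With an array left out, 0 to 6 members were higher and 0 to 4 lower without overlap (beside 23.9% to 34.3% and 22.1% to 32.8% of all genes), the median difference ran from -0.23 to 0.56, and log2 differences ran from -0.28 to 0.18 for Pnpla2, -0.12 to 0.44 for Plin2, -0.21 to 0.23 for Plin3, -0.36 to 0.63 for Plin4, -1.27 to 0.77 for Plin5, -0.23 to 0.68 for Cidea, -0.53 to 0.68 for Cideb, -0.60 to 0.47 for Cidec, -0.15 to 2.02 for Plin1, -0.21 to 0.66 for Cav1, -0.12 to 0.44 for Pnpla1, -0.37 to 0.016 for Rab18 and -0.40 to 0.058 for Spast, and, with no change of sign, -0.98 to -0.35 for Pnpla8, -0.36 to -0.07 for Mttp and 0.05 to 0.50 for G0s2. A lone array of a group is then assumed to vary like the others. The groups then no longer hold the same letters, so part of the gap between letters enters these differences and counts. Plin3 turned to -0.040 with median centring, and Cidec was 0.053 on its other probe. The cause of these changes for Plin3 and Cidec was not tested. Low signal over background limits Pnpla3, Pnpla5, Plin4, Plin1, Pnpla8, Pnpla1 and Cav1. With normexp background correction the difference was 0.010 for Pnpla1, 0.107 for Cav1 and 0.061 for Plin4.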
